A study of Mus musculus with 4 samples.

Results

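The genes described here encode the nuclear subunits of the mitochondrial respiratory chain and of the ATP synthase, with their close isoforms and assembly factors. They were chosen by name alone: every gene whose array symbol, updated to the RefSeq table of GRCm38.p6, starts with Nduf, Sdha to Sdhd, Uqcr, Cox4 to Cox8 or Atp5. This gave 80 genes, read by 87 probes, of 13544 genes measured on all 4 arrays. All 80 had a value on every array. The naming rule uses no measured value, although it was written with earlier results of these data known. Of them 79 are among the 100 protein-coding genes of the RefSeq table with such symbols, and the other, Ndufs5-ps, is listed as a pseudogene. Complex I had 37 of the genes, complex II 4, complex III 8, complex IV 16 and complex V, the ATP synthase, 15. By role, 16 are counted as core subunits, which form or anchor the catalytic and rotary machinery. As accessory subunits 52 are counted, the peripheral stalk of complex V among them. Another 7 are assembly factors and 4 are isoforms known mainly from other tissues (Cox4i2, Cox6a2, Cox7a1 and Cox8b). The subunits encoded in mitochondrial DNA carry other symbols and are not among them.

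Livers came from male mice of the inbred strain C57Bl/6J, and their RNA was amplified and hybridised to 4 two-colour oligonucleotide arrays. The Cy5 channel held liver of mice on an atherogenic diet with high fat for 24 weeks or for 6 weeks, or on an atherogenic diet without added high fat, called plain here, for 24 weeks or for 6 weeks. The Cy3 channel held liver of mice fed standard chow, for 24 weeks on both 24-week arrays and for 6 weeks on the high-fat 6-week array, while the plain 6-week array has no duration of chow in its labels. Each condition had 1 array with no dye swap, and diet composition, pooling of mice and sharing of chow RNA between arrays are not stated in the sources used. All values below are log2 ratios of diet over chow, so that 0 means equal signal. The direction is inferred from the dyes in the labels, and the reading of the deposited values as base 10 logarithms is inferred from their spread. Every fold below rests on both inferences, and every higher or lower on the direction.

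The respiratory chain passes electrons from NADH (complex I) and succinate (complex II) through complex III to complex IV, which reduces oxygen, and the proton gradient this builds drives the rotary ATP synthase. Liver is rich in mitochondria and uses this system to draw ATP from fatty acid oxidation. Most subunits are nuclear-encoded, and many of their promoters are known to bind nuclear respiratory factor 1 (NRF1), the GA-binding protein GABPA, YY1 or the estrogen-related receptor alpha (ERRA).

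Promoters are shown for 4 genes that follow patterns described below and were picked among those with an NRF1 match: Ndufb4, above chow on both high-fat arrays and below chow on both plain arrays; Sdhaf4, lower with high fat; Atp5k, lower on both 24-week arrays; and Sdha, higher on both 24-week arrays. Each run is the 250 bases before the RefSeq start on GRCm38.p6, all on the minus strand and written 5′ to 3′. They lie at chr16:37654369-37654618 for Ndufb4, chr1:24005641-24005890 for Sdhaf4, chr5:108434400-108434649 for Atp5k and chr13:74350241-74350490 for Sdha. Capitals mark matches, on either strand, to the NRF1 motif GCGCANGCG or, once in Ndufb4, to the ERRA motif AAGGTCA, and the 2 NRF1 matches of Atp5k overlap on opposite strands.
Ndufb4: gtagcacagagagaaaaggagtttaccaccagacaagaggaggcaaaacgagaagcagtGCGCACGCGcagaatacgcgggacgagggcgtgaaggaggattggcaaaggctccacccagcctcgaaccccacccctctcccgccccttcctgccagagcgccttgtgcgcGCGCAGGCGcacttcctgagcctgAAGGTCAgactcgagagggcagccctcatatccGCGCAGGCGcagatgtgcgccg
Sdhaf4: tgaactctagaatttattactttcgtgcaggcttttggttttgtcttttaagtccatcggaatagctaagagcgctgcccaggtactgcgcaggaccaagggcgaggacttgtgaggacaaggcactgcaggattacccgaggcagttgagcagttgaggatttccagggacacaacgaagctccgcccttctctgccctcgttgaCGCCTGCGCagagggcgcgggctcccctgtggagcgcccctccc
Atp5k: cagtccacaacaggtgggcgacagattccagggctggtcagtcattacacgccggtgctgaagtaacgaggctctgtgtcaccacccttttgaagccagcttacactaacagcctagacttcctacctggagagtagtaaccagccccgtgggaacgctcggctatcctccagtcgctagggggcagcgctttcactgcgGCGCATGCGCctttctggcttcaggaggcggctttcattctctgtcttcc
Sdha: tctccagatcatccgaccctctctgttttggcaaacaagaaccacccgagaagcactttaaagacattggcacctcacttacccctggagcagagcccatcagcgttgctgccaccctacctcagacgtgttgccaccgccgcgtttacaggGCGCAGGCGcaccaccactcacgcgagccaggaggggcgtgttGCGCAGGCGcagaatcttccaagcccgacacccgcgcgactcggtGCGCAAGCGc

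RefSeq promoter windows of 300 bases (250 before the start and 50 after it) were found for 67 of the 80 genes. The NRF1 motif stood in 20 of the 67 (29.9%), against 1214 of the 10831 measured genes with a window (11.2%), which include the 67. Ndufb4 and Sdha each held 3 such matches. Of the genes like Atp5k, with both 24-week arrays below both 6-week arrays, 6 of 27 held one (22.2%). Of those like Sdha, with both 24-week arrays above both 6-week arrays, 2 of 5 did (40%). The YY1 motif AAGATGGCG stood in 8.96% of the 67, against 2.53% of the measured genes. The GABPA motif CCGGAAGT stood in 7.46% against 6.44%, and the ERRA motif in 7.46% against 4.37%. A match describes the letters of the window and not a bound site. No test was made of these shares, and genes with several windows were counted once if any window matched.

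Between 27951 and 28806 of 28845 probes had a value on an array. The SD of log2 ratios was taken over the 27870 probes with a value on all arrays. It was 0.39 and 0.37 on the high-fat 24-week and 6-week arrays, against 0.46 and 0.53 on the plain 24-week and 6-week arrays. Median ratios over all genes lay between -0.01 and 0.05. With 1 array per condition, no p-value here measures the spread between animals, and the spread of chow is left out. The test of the mean against chow uses the spread between the 4 conditions. The tests of high fat and of duration use what an additive fit of both leaves over. That is 1 residual degree of freedom, moderated across genes. Ratios hold no absolute level, so the liver label was not checked against marker levels. In whole liver, a change in the share of a cell type and a change in RNA per cell cannot be told apart.

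On all 4 arrays 45 of the 80 (56.2%) lay within 0.5 log2 units of chow, against 61.4% of all genes, a share near the background. The median of the 80 was 0.00 on the high-fat 24-week array and 0.24 on the high-fat 6-week array, with 40 and 65 genes above 0. On the plain arrays it was -0.12 at 24 weeks and 0.14 at 6 weeks, with 28 and 50 genes above 0. The high-fat 6-week array was thus the one on which most members stood above chow, and the plain 24-week array the one on which most stood below. On the high-fat 6-week array 35 of the 80 had their highest value, against 19.0% of all genes, and on the plain 24-week array 36 had their lowest, against 18.3% of all genes.

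**Figure D1:**
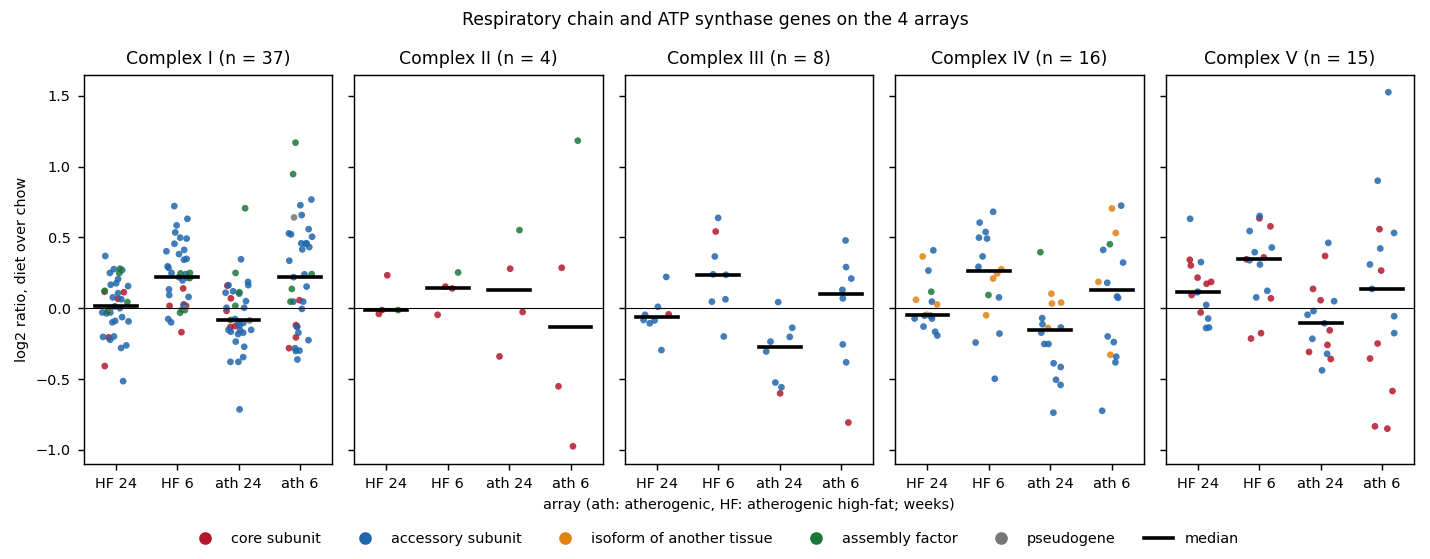
Log2 ratio of diet over chow (vertical axis) for each of the 80 genes on the 4 arrays (horizontal axis), by complex, with points coloured by role and bars at the median. Core subunits of complexes II, III and V reach the lowest values on the plain 6-week array, where accessory subunits spread upward.

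By complex, the medians moved alike across the arrays, with complex II apart. In complex I, the NADH dehydrogenase, they were 0.01 and 0.22 on the high-fat 24-week and 6-week arrays and -0.08 and 0.22 on the plain 24-week and 6-week arrays. Complex III, which hands electrons to cytochrome c, had -0.06 and 0.24, against -0.27 and 0.10. Complex IV, cytochrome c oxidase, had -0.05 and 0.26, against -0.16 and 0.13, in the same order of arrays. For complexes I, III, IV and V alike the median was higher at 6 than at 24 weeks within each diet. Complex V stood at 0.12 and 0.35 with high fat, against -0.11 and 0.14 on the plain arrays. Complex II, succinate dehydrogenase, which also belongs to the TCA cycle, had -0.01 and 0.15 with high fat, against 0.13 and -0.13 on the plain arrays. It has 4 genes, and without its assembly factor Sdhaf4 its mean over the 4 array medians was -0.11 in place of 0.03. Over the 4 arrays the mean of the medians was 0.12 for complex V, 0.09 for complex I, 0.05 for complex IV and 0.0004 for complex III, differences smaller than those between arrays within each of these complexes. No test was made between complexes.

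**Figure D2:**
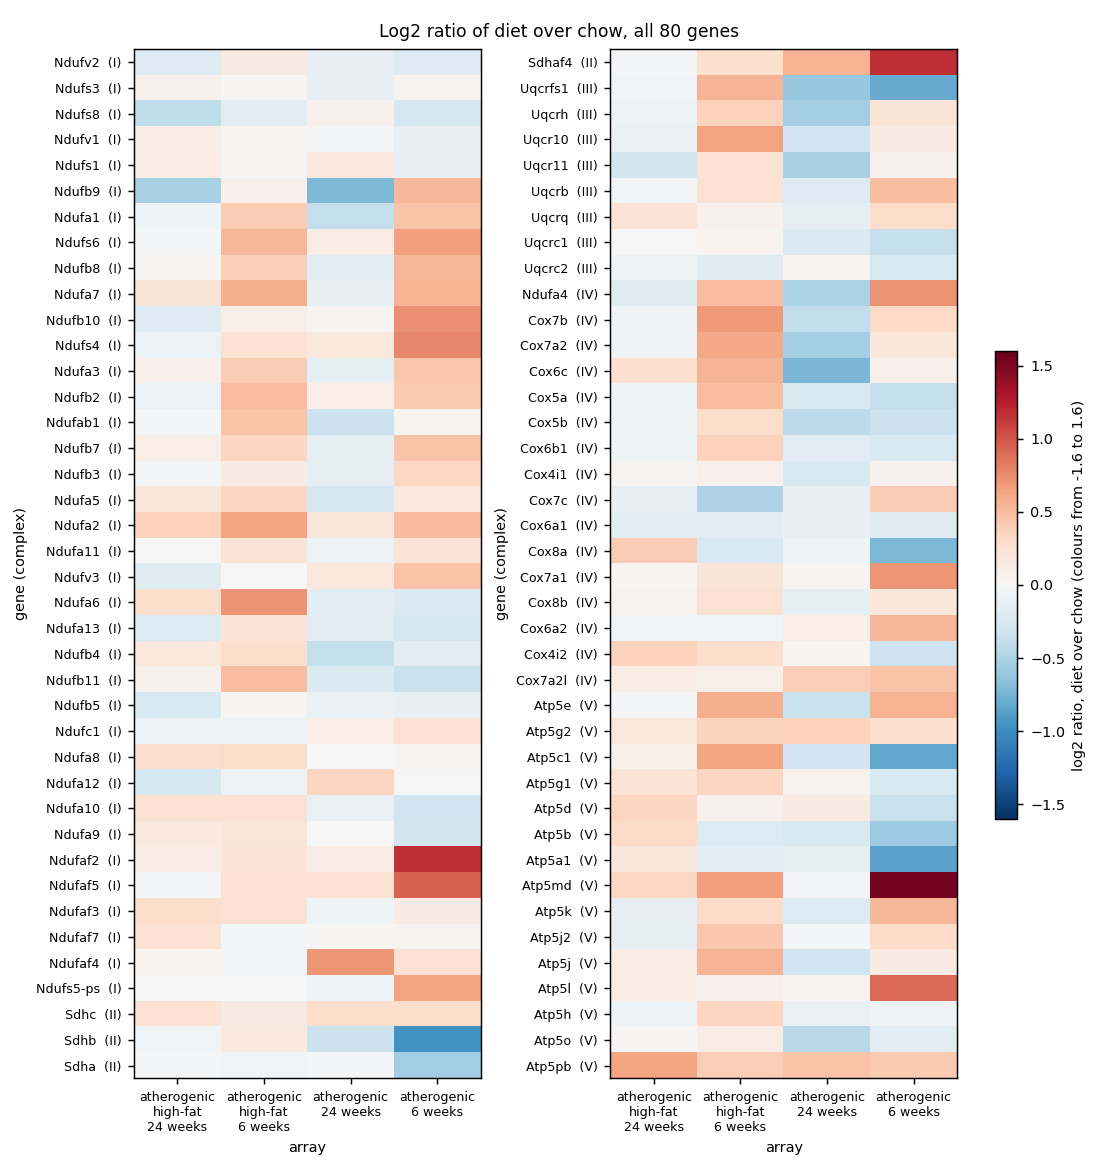
Log2 ratio of diet over chow as colour for all 80 genes (rows, with the complex in brackets, ordered by complex, role and difference between durations) on the 4 arrays (columns). The deepest blue and red fields lie in the plain 6-week column, as for Sdhb (-0.98) and Atp5md (1.53).

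The genes were also grouped by role. Core subunits had medians of 0.10 and 0.10 on the high-fat 24-week and 6-week arrays, against -0.08 and -0.27 on the plain 24-week and 6-week arrays. Accessory subunits had -0.04 and 0.30, against -0.15 and 0.19. On the plain 6-week array, then, core and accessory medians lay on opposite sides of chow, and 11 of the 16 core subunits had their lowest value there, beside 11 of the 52 accessory subunits and 30.3% of all genes. The roles were assigned from textbook knowledge after values had been seen, and the split is given without a test.

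The first comparison sets the mean of all 4 arrays against chow. Of the 80, 2 passed an adjusted p of 0.05 as higher than chow (Atp5pb and Ndufa2) and 0 as lower (limma, Benjamini-Hochberg over all genes). Over all genes 6.27% passed as higher and 5.8% as lower. An unadjusted p under 0.05 in limma was found for 7 of the 80 (8.75%), against 30.75% of all genes. The count of genes that pass depends on the model: 6 of the 80 were higher with duration as a random block, and 14 were higher and 1 lower with diet and duration terms. Counts over all genes rose as well and are given below. In both models the share of the 80 stayed below that of all genes in each direction. The ATP synthase inhibitor Atpif1, outside the 80 by its symbol in GRCm38.p6 but inside by the newer symbol Atp5if1, was also higher (adjusted p = 0.0414). Atp5pb, subunit b of the peripheral stalk that holds the ATP synthase head in place, had 0.63 and 0.40 on the high-fat 24-week and 6-week arrays and 0.46 and 0.42 on the plain 24-week and 6-week arrays. All its values lay above chow and within 0.24 of each other within a diet. Its mean was 0.48 ± 0.08 (limma SE, 4 arrays), or 1.39-fold (adjusted p = 0.0187). Ndufa2, an accessory subunit at the NADH-oxidising end of complex I, had 0.37 and 0.63 on the high-fat 24-week and 6-week arrays, against 0.19 and 0.50 on the plain arrays. It was above chow on every array, higher at 6 weeks in both diets. Its mean was 0.42 ± 0.10, or 1.34-fold (adjusted p = 0.0416). Both calls were close to the threshold: that of Atp5pb ended without the plain 24-week (adjusted p = 0.088), the high-fat 6-week (0.0567) or the high-fat 24-week array (0.0801), and that of Ndufa2 without any 1 of the 4 (0.0844 to 0.134). With diet as a random block the adjusted p was 0.0813 for Atp5pb and 0.156 for Ndufa2.

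Above chow on all 4 arrays lay 9 of the 80, against 20.7% of all genes. Beside Atp5pb and Ndufa2 these were the rotor subunit Atp5g2, the small membrane subunit Atp5l, Cox7a1, Cox7a2l, Ndufa8, the assembly factor Ndufaf2 and the membrane anchor Sdhc. Below chow on all 4 arrays were 2 of the 80, the catalytic flavoprotein Sdha and Cox6a1, against 20% of all genes. Cox6a1, the liver isoform of subunit 6a, was flat: -0.17 and -0.18 on the high-fat 24-week and 6-week arrays, against -0.11 and -0.20 on the plain arrays. Sdha had -0.01 and -0.05 with high fat, against -0.03 at 24 weeks and -0.55 at 6 weeks on the plain diet, so that 1 array carried its low mean. Macrophage markers moved with the same contrast, 8 of 13 higher and 1 lower than chow, with medians of 0.65 and 0.76 on the high-fat 24-week and 6-week arrays and 0.75 and 1.01 on the plain arrays. Of 9 stellate and fibroblast markers 6 were higher and 1 was lower than chow, and 2 of 6 bile duct and 2 of 11 lymphocyte markers were higher. The part of these cells in the ratios of the 80 genes was not tested.

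**Figure D3:**
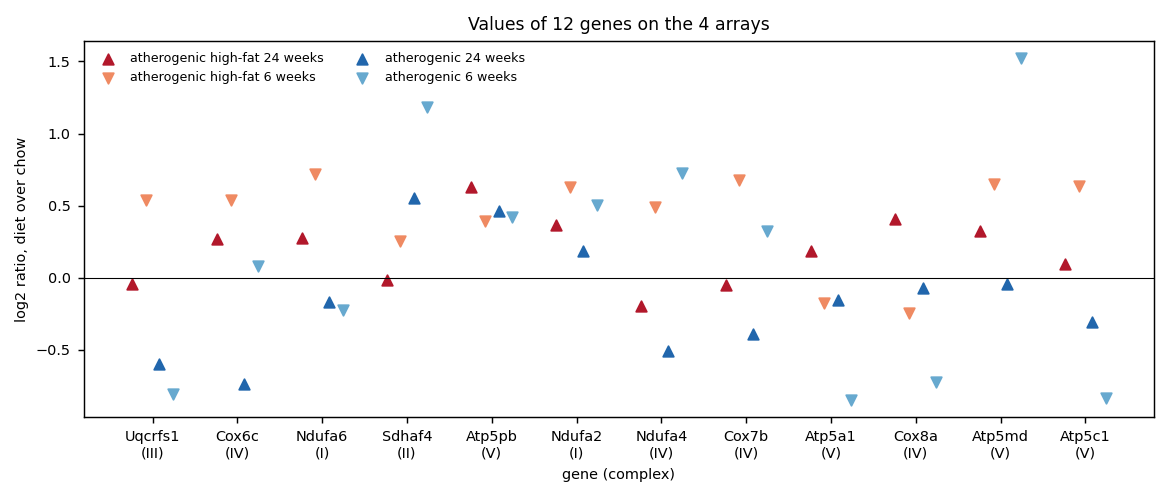
Log2 ratio of diet over chow (vertical axis) of 12 genes (horizontal axis, complex in brackets) on each array, with red and orange for high fat, dark and light blue for plain, and upward triangles for 24 weeks. Uqcrfs1, Cox6c and Ndufa6 have both high-fat points above both plain points, Sdhaf4 has them below, and Atp5pb has all 4 points between 0.40 and 0.63.

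The second comparison sets the high-fat arrays against the plain arrays within each duration. A difference between the diets also holds any difference between the chow samples on those arrays, and diet and chow cannot be told apart in it. At 6 weeks the chow of the plain array has no duration in its labels. Of the 80, 3 were higher with high fat (Uqcrfs1, Cox6c and Ndufa6) and 1 was lower (Sdhaf4), at the same threshold. Over all genes 3.72% passed as higher and 7.1% as lower. The difference over the 80 had a median of 0.13, against -0.07 over all genes. Uqcrfs1 is the Rieske iron-sulfur protein, the catalytic subunit through which complex III takes electrons from ubiquinol. It had -0.04 and 0.54 on the high-fat 24-week and 6-week arrays, against -0.60 and -0.81 on the plain 24-week and 6-week arrays. On the plain arrays it was below chow and with high fat near or above chow, with no overlap. The difference was 0.95 ± 0.20 (1.94-fold; adjusted p = 0.0338), at 0.56 for 24 weeks and 1.35 for 6 weeks.

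Cox6c, a nuclear-encoded subunit of complex IV, had 0.27 and 0.54 on the high-fat 24-week and 6-week arrays, against -0.74 and 0.08 on the plain arrays. Its low value was on the plain 24-week array, and both high-fat values lay above both plain ones. The difference was 0.73 ± 0.17 (1.66-fold; adjusted p = 0.042). Ndufa6, an accessory subunit of complex I that holds an acyl carrier protein in place, had 0.28 and 0.72 with high fat, against -0.17 and -0.23 on the plain arrays. It was above chow with high fat and below chow without, and the difference was 0.69 ± 0.17 (1.62-fold; adjusted p = 0.0437). Sdhaf4, an assembly factor that helps to mature the flavoprotein of complex II, had -0.01 and 0.25 with high fat, against 0.55 and 1.18 on the plain arrays. Its plain values were the high ones, and the difference was -0.75 ± 0.15 (a ratio of 0.596; adjusted p = 0.0323). All 4 calls ended in a model without the duration term, with adjusted p of 0.0966 for Uqcrfs1, 0.184 for Cox6c, 0.104 for Ndufa6 and 0.134 for Sdhaf4. Centring the arrays ended those of Cox6c (0.0546) and Ndufa6 (0.0504), and scaling them that of Uqcrfs1 (0.0506).

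Both high-fat arrays lay above both plain arrays for 21 of the 80 genes (26.2%), against 25% of all genes, a share near the background. Both lay below for 8 of the 80 (10%), against 36.4% of all genes. The 21 hold the flavin subunit Ndufv1 of complex I, the iron-sulfur subunit Sdhb of complex II and Uqcrc1 of complex III. They also hold Cox5a, Cox5b and Cox6b1 of complex IV, and Atp5b, Atp5c1, Atp5g1 and Atp5o of complex V. Among the 21, 6 are core subunits. Ndufv1, whose 2 probes are discordant, and Atp5b enter as the mean of 2 probes, of which 1 alone does not show this order. The 8 that lay lower hold 3 of the 7 assembly factors (Cox7a2l, Ndufaf4 and Sdhaf4), the anchor Sdhc and Cox6a2. The others are the complex I accessory subunits Ndufa12, Ndufc1 and Ndufv3. Ndufa12 is likewise the mean of 2 probes, of which 1 alone does not lie lower on both high-fat arrays. The median difference was -0.47 over the 7 assembly factors and 0.22 over the 16 core subunits.

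Genes named for other values did not pass between the diets. Sdhb, which carries the iron-sulfur clusters of complex II, had -0.04 and 0.15 on the high-fat 24-week and 6-week arrays, against -0.34 and -0.98 on the plain arrays. That is the lowest value of any of the 80 genes on any array, and the difference was 0.71 ± 0.21 (adjusted p = 0.0648). Atp5c1, the gamma subunit that turns inside the ATP synthase head, had 0.09 and 0.63 with high fat, against -0.31 and -0.83 on the plain arrays. The high-fat and plain values lay on opposite sides of chow, with a difference of 0.94 ± 0.24 (adjusted p = 0.0506). Cox7a2l, described as a factor that joins complexes III and IV into supercomplexes, had 0.12 and 0.09 with high fat, against 0.40 and 0.45 on the plain arrays. Its difference was -0.32 ± 0.14 (limma, adjusted p = 0.159). Whether it has that role in this strain was not tested.

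Hepatocyte markers moved with the same contrast. Of 13 measured, 7 were lower and 1 was higher with high fat, and their medians were -0.65 and -0.85 on the high-fat 24-week and 6-week arrays, against 0.34 and 0.06 on the plain arrays. Their part in the differences above was not tested. Among genes that work beside the chain, the testis cytochrome c Cyct passed as higher with high fat, at -0.04 and -0.02 with high fat against -0.73 and -0.83 on the plain arrays, a difference of 0.75 ± 0.14 (adjusted p = 0.0265). The other two members of that list, the somatic Cycs and the complex III subunit Cyc1, did not pass in any comparison. Of 9 measured carriers and channels, the phosphate carrier Slc25a3, which supplies the ATP synthase, was higher with high fat (0.98 ± 0.18, adjusted p = 0.0251), and the ADP/ATP carrier Slc25a4 was higher than chow (0.86 ± 0.13, adjusted p = 0.0121). The other 7 did not pass in either comparison.

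Of 27 measured assembly factors with other names, 4 were lower with high fat and 0 higher. The largest differences were those of Coa3, a complex IV assembly factor (-1.10 ± 0.22, adjusted p = 0.0316), and Uqcc2, a complex III assembly factor (-0.97 ± 0.18, adjusted p = 0.0265). Coa3 had 0.29 and 0.26 on the high-fat 24-week and 6-week arrays, against 0.91 and 1.83 on the plain arrays. Of 10 measured nuclear regulators of mitochondrial genes, Nrf1 (-0.67 ± 0.14, adjusted p = 0.0333) and the coactivator Ppargc1a (-0.65 ± 0.14, adjusted p = 0.0342) were lower with high fat. Nrf1 had -0.52 and -0.72 with high fat, against 0.07 and 0.04 on the plain arrays, and Ppargc1a had -0.44 and -0.08, against 0.23 and 0.56.

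The third comparison sets 24 weeks against 6 weeks within each diet. No gene of the 80 passed an adjusted p of 0.05, and 0% of all genes did (limma, smallest adjusted p among the 80 = 0.229). An unadjusted p under 0.05 was found for 32 of the 80, against 9.81% of all genes. Both 24-week arrays lay below both 6-week arrays for 32 of the 80 (40%), against 10.4% of all genes. The reverse held for 8 of the 80 (10%), against 14% of all genes. The median difference over the 80 was -0.20 with high fat and -0.28 on the plain diet, against 0.00 and 0.02 over all genes. A difference between durations also holds any difference between the chow samples on those arrays, and diet and chow cannot be told apart in it.

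**Figure D4:**
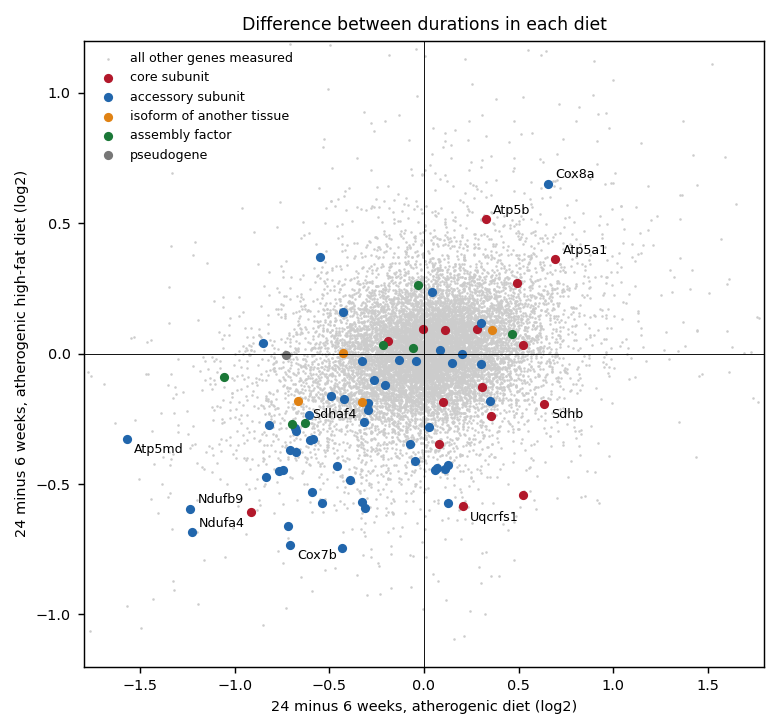
Difference of 24 minus 6 weeks in log2 ratio with the high-fat diet (vertical axis) against the same with the plain diet (horizontal axis), for the 80 genes coloured by role over all other measured genes in grey (some beyond the axes). Accessory subunits lie mainly at the lower left, and Cox8a and Atp5a1 stand in the upper right.

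The 32 lower at 24 weeks came from each complex except complex II: 16 of 37 in complex I, 4 of 8 in complex III, 6 of 16 in complex IV and 6 of 15 in complex V. Of the 52 accessory subunits 27 were among them (51.9%), and of the 16 core subunits 1 was (6.25%), the small epsilon subunit Atp5e. Ndufa4, long counted with complex I and now placed in complex IV, had -0.19 and 0.49 on the high-fat 24-week and 6-week arrays, against -0.51 and 0.72 on the plain 24-week and 6-week arrays. It was below chow at 24 weeks and above it at 6 weeks in both diets, and its difference of -0.96 ± 0.17 was the largest of the 80 in size (adjusted p = 0.229). Cox7b, a small subunit of complex IV, had -0.05 and 0.68 with high fat, against -0.39 and 0.32 on the plain diet, a difference of -0.72 ± 0.14 (adjusted p = 0.256). The 2 within-diet differences of Cox7b were nearly equal, at -0.73 with high fat and -0.71 on the plain diet.

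The complex I accessory subunits gave the largest block, with 14 of 26 lower at 24 weeks and 0 of 26 higher. Among them were Ndufb9, Ndufb8, Ndufb7 and Ndufb10 of the membrane arm, Ndufa1, Ndufa7 and Ndufs6. Ndufb9 had -0.52 and 0.08 with high fat, against -0.71 and 0.52 on the plain diet, and its difference was -0.92 ± 0.18 (adjusted p = 0.269). None of the 5 core subunits of complex I lay lower at 24 weeks on both arrays. In complex III the hinge protein Uqcrh, Uqcrb, Uqcr10 and Uqcr11 were among the 32. Uqcrb had -0.05 and 0.24 with high fat, against -0.20 and 0.48 on the plain diet, -0.48 ± 0.16 in difference (adjusted p = 0.404).

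The 8 higher at 24 weeks were the alpha and delta subunits of the ATP synthase, Atp5a1 and Atp5d, with Atp5pb, Cox6a1, Cox8a, Ndufs1, Sdha and Uqcrc2. Cox8a, the general isoform of subunit 8, had 0.41 and -0.24 on the high-fat 24-week and 6-week arrays, against -0.07 and -0.72 on the plain arrays. Its difference was 0.65 in each diet (0.65 ± 0.14, adjusted p = 0.286), opposite in sign to that of Cox7b in the same complex. Atp5a1, which with Atp5b forms the catalytic head of the ATP synthase, had 0.19 and -0.18 with high fat, against -0.16 and -0.85 on the plain diet, a difference of 0.53 ± 0.15 (adjusted p = 0.382). Atp5b had 0.30 and -0.21 with high fat, against -0.26 and -0.58 on the plain diet, higher at 24 weeks within each diet although its groups overlapped.

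Complex V thus held genes at both ends. The head and central stalk (Atp5a1, Atp5b, Atp5c1, Atp5d and Atp5e) had medians of 0.19 and 0.07 on the high-fat 24-week and 6-week arrays, against -0.26 and -0.58 on the plain 24-week and 6-week arrays. The small membrane subunits (Atp5j2, Atp5k, Atp5l and Atp5md) had -0.01 and 0.37, against -0.03 and 0.72. On the plain diet Atp5e ran against the others of the head and central stalk, with the lower value at 24 weeks. It had -0.03 and 0.58 with high fat, against -0.36 and 0.56 on the plain diet. With high fat Atp5c1 was also lower at 24 weeks, at 0.09 against 0.63 at 6 weeks. Among the small membrane subunits, Atp5l was slightly higher at 24 weeks with high fat (0.12 against 0.08). Atp5md had the widest range of the 80, at 0.33 and 0.65 with high fat, against -0.05 and 1.53 on the plain diet. Its plain 6-week value was the highest of any of the 80 on any array.

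The rotor genes Atp5g1 and Atp5g2 encode the same mature c subunit. Atp5g1 had 0.22 and 0.35 on the high-fat arrays, against 0.06 and -0.25 on the plain arrays. Atp5g2 had 0.17 and 0.36, against 0.37 and 0.27, above chow throughout. Their ratios came apart on the plain arrays, where Atp5g2 was the higher at both durations. Whether a probe of one also reads the other was not tested.

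Isoform pairs of complex IV had unlike profiles over the 4 arrays. Cox6a2, the heart and muscle isoform beside Cox6a1, had -0.05 and -0.05 on the high-fat 24-week and 6-week arrays, against 0.10 and 0.53 on the plain arrays. Cox7a1, also of heart and muscle, had 0.03 and 0.21, against 0.04 and 0.70. Its liver counterpart Cox7a2 had -0.06 and 0.60, against -0.54 and 0.18, so the pair had their highest values on different 6-week arrays. Cox4i2, known from lung, had 0.36 and 0.28 with high fat, against 0.03 and -0.33 on the plain arrays. The general Cox4i1 had 0.05 and 0.08, against -0.25 and 0.07. Cox8b had 0.06 and 0.25, against -0.14 and 0.19, with 6 weeks above 24 weeks in both diets, the reverse of Cox8a. Cox6b1 was measured without its testis isoform, at -0.07 and 0.36, against -0.17 and -0.24. The 7 striated muscle markers measured had medians between -0.21 and -0.05 on the 4 arrays. On the plain 6-week array they ranged from -0.495 to 1.146. Of the 7, Myh1 passed as lower than chow and Actn3 as lower with high fat. Ratios do not show how much of the heart and muscle isoforms is present.

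Among related gene groups, the TCA cycle had 0 of 15 genes with both 24-week arrays below both 6-week arrays and 5 with both above. The mitochondrial ribosome had 13 of 69 lower and 4 higher at 24 weeks, the cytosolic ribosome 9 of 64 lower and 6 higher, and the proteasome 7 of 37 each way. These stand beside 32 of 80 lower and 8 higher for the respiratory chain and ATP synthase, and no test was made between the groups. Against chow, the cytosolic ribosome had 28 of 64 genes higher, the mitochondrial ribosome 4 of 69, the proteasome 5 of 37 with 1 lower, and the TCA cycle 0 of 15 (2 at an unadjusted p under 0.05 in limma), beside 2 of 80 here. The medians of the cytosolic ribosome were 0.66 and 0.33 on the high-fat 24-week and 6-week arrays, against 0.31 and 0.57 on the plain arrays.

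**Figure D5:**
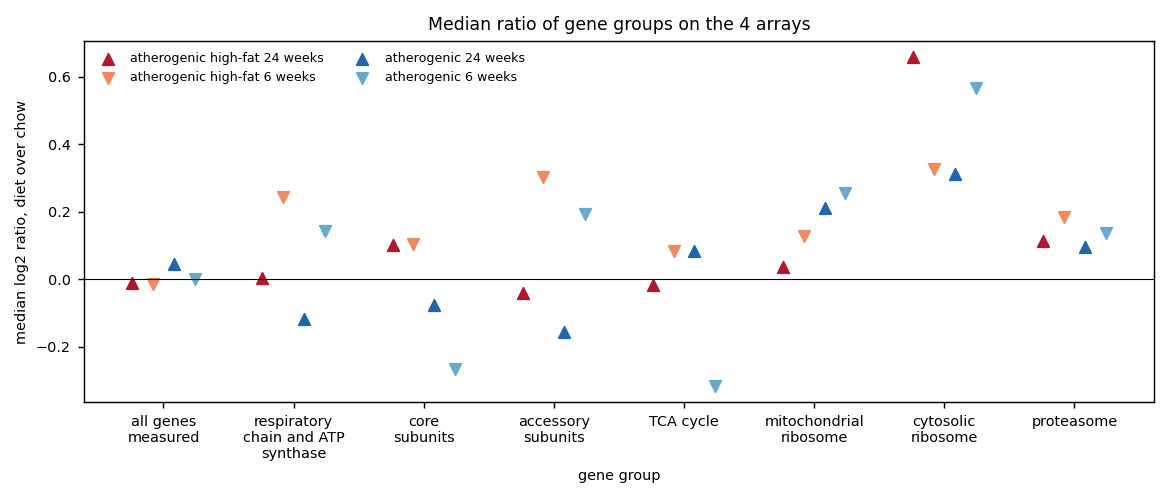
Median log2 ratio of diet over chow (vertical axis) of 8 gene groups (horizontal axis) on each of the 4 arrays, with red and orange for high fat and blue for plain. The respiratory chain and its accessory subunits have both 6-week points above both 24-week points, while core subunits and TCA cycle genes have their lowest point on the plain 6-week array.

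For 73 of the 80 genes 1 probe gave the value. The other 7 (Atp5b, Ndufa12, Ndufaf4, Ndufs4, Ndufv1, Sdhb and Uqcrq) had 2 probes each. Their probes differed by up to 0.84 on 1 array, for Ndufv1 on the plain 6-week array, and by up to 0.79 for Uqcrq on the same array. The probes of Sdhb differed by 0.40 at most there, less than its distance from chow. For Ndufv1 the 2 probes gave means of -0.22 and 0.22 over the 4 arrays, so its direction depends on the probe. A gene with 1 probe gives no such check, and since diet was always in Cy5, diet and a dye preference of that probe cannot be told apart.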

How the data were processed

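Liver RNA of 4 diet conditions was compared with chow on 4 two-colour arrays. Per the series' design text, spots were read with GenePix Pro 4.1 and LOWESS-normalized in GeneSpring 7.2; how background was corrected and spots were filtered is not stated there. The deposited values are ratios on a log scale, read here as log10 of diet over chow; base, direction and any centring beyond LOWESS are not stated. Median deposited values lay between -0.019 and 0.006. LOWESS removes dye differences that depend on intensity, not those of single probes.

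Values were converted to log2. Probes with a value on all arrays (27870) and 1 gene symbol were kept and averaged per gene. Of 28845 probes, 17637 had 1 symbol, 64 several and 11144 were not listed in the annotation, and 252 with 1 symbol matched no RefSeq gene. limma 3.58.1 in R 4.3.3 (lmFit, eBayes, two-sided, Benjamini-Hochberg over 13544 genes) tested the mean of the 4 arrays against 0, and fitted high fat and duration together, additively, which leaves 1 residual degree of freedom. The fits were tested on simulated data. Promoters came from RefSeq (GRCm38.p6).

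Members, lists and roles were chosen with earlier results of these data known. Named were Uqcrfs1, Cox6c, Ndufa6 and Atp5pb; per complex up to 4 genes past the threshold against chow in each direction, or the highest and lowest mean; up to 6 past it for high fat and duration, or 2 by the smaller within-pair difference; isoform pairs; the 4 widest ranges; and up to 2 genes per other list. Other genes given with values (Sdha, Ndufb9, Atp5b, Atp5e, Atpif1 and those with promoters) were chosen after their values were seen. Alternatives were centring, scaling, probe summaries, probe-level tests, missing values, robust eBayes, limits on ratios, thresholds, blocks, other models, log bases and leaving out each array.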

Additional observations from a re-analysis of the deposited data

Results flagged for a closer look

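For 4 genes the ratio to chow differed between the diets by the test of the difference: Uqcrfs1 (0.95), Cox6c (0.73), Ndufa6 (0.69) and Sdhaf4 (-0.75), as log2 high fat minus plain. In 8 genes both high-fat arrays lay above chow and both plain arrays below it (Atp5c1, Atp5o, Ndufa10, Ndufa6, Ndufb11, Ndufb4, Ndufv1 and Uqcrc1), or 10% of the 80, near the 8.48% of all genes. For Ndufv1 only the mean of its 2 probes shows this, since 1 probe lay above chow and the other below it on all 4 arrays. In 3 genes both high-fat arrays lay below chow and both plain arrays above it (Cox6a2, Ndufc1 and Ndufv3), or 3.75%, below the 10.9% of all genes. Apart from Ndufa6, no gene of these 2 groups passed the test of the difference.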

How the results depend on the processing

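Of the counts, 2 genes were higher than chow; this became 0 at a threshold of 0.01 or with diet as a random block, 6 with duration as a random block, 14 with diet and duration terms (1 then lower), and 0 to 1 on leaving out each array. Over all genes 849 were higher and 785 lower, against 2810 and 2322 with both terms, 2348 and 2099 with duration as a block, 183 and 220 with diet as a block, and 122 higher without the plain 24-week array. For high fat 3 were higher and 1 lower: 0 and 0 at a threshold of 0.01, 15 and 5 at 0.1, and 0 and 0 without the duration term, where 0 of all genes passed. The share of all genes that pass at 0.1 is not given here, so 15 and 5 cannot be set against it. Higher genes numbered 1 with centred arrays, 5 with the median of probes, 6 with the probe of largest ratio and 6 with tests on probes, with 2 lower in each of the last pair. Counts over all genes in these settings are not given here either, so these numbers cannot be set against them. For duration the count stayed at 0 under every alternative run. Complex II without its assembly factor had a mean of -0.11 (0.03 with it). With scaled arrays the mean against chow changed sign for Cox6b1 (0.0089) and Atp5c1 (0.0057). Leaving out each array gave means against chow that crossed 0 for Cox6c (-0.13 to 0.30), Ndufa6 (-0.039 to 0.28), Uqcrb (-0.0033 to 0.22), Cox8a (-0.35 to 0.032), Cox7b (-0.040 to 0.32), Ndufa4 (-0.069 to 0.34), Cox4i1 (-0.044 to 0.065), Cox4i2 (-0.0066 to 0.22), Cox6b1 (-0.16 to 0.040), Cox7a2 (-0.14 to 0.24) and Atp5c1 (-0.35 to 0.14). None of these genes had passed for the mean against chow. The causes were not tested. With centring, scaling or the median of probes, chosen after seeing the data for these counts, 30 to 34 genes lay lower and 6 to 8 higher on both 24-week arrays, and 20 to 24 higher and 8 to 11 lower on both high-fat arrays. Signal over background was not used here, so its limits on dim probes are unknown.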

Other observations

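Atpif1, the inhibitor of the ATP synthase, lies outside the naming rule by its RefSeq symbol of GRCm38.p6. Its newer symbol, Atp5if1, would place it inside, beside Atp5pb and Ndufa2 among the genes higher than chow. It had 0.25 and 0.37 on the high-fat 24-week and 6-week arrays and 0.65 and 0.36 on the plain 24-week and 6-week arrays, a mean of 0.41 ± 0.10 over chow (adjusted p = 0.0414, limma). The coactivator Pprc1, also named PRC, was higher than chow on all 4 arrays, at 1.07 and 0.50 with high fat and 0.75 and 1.03 on the plain diet (0.84 ± 0.12, adjusted p = 0.0105). Cox20, a complex IV assembly factor, was higher by 0.41 ± 0.08 (adjusted p = 0.0261), with values between 0.32 and 0.51 on the 4 arrays.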
